A study of Mus musculus with 30 samples.

Results

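The transcripts of 8 genes that are commonly used as readouts of interleukin (IL)-13 and IL-4 in the airway were followed in bulk RNA-seq of mouse lung organoid cultures: Chil3, Chil4, Clca1, Slc26a4, Retnla, Alox15, Arg1 and Itln1. They were chosen by their symbols out of 55487 genes counted, and all 8 were present in the files. The choice was made because Chil4, Clca1 and Slc26a4 stood out in epithelial cells exposed to the cocktail that holds IL-4 and IL-13, so the epithelial values under that cocktail were what the members were selected on and are described here with no test. The other conditions, and the fibroblast fraction, were tested. Fibroblast libraries under that cocktail also held epithelial RNA, so their tests are not independent of the selection.

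The organoids were grown from lung Epcam+ cells, depleted of CD31+ and CD45+ cells, of adult wild-type C57BL/6J mice, mixed 1:1 (300000 cells of each) with CCL206 cells, a mouse lung fibroblast line that had been growth-arrested with mitomycin C, and embedded in Matrigel. After exposure for 72 h, the cultures were taken apart and separated with anti-Epcam (CD326) beads into an Epcam+ epithelial and an Epcam- fibroblast fraction. The 4 exposures were vehicle, the exacerbation cocktail EC (TNFα, IL-1β, IL-6 and IL-8, given as mouse KC), the pulmonary fibrosis cocktail IPFc (IL-4 and IL-13 with TSLP, IL-33, CCL2, IL-1β, TNFα, IL-8 and TGF-β), and TGF-β at 2 ng/ml. IL-4 and IL-13 were thus present in IPFc only, IL-1β, TNFα and IL-8 were shared by EC and IPFc, and TGF-β by IPFc and the TGF-β exposure. Of 30 libraries, 15 were epithelial (4 vehicle, 4 EC, 4 IPFc and 3 TGF-β) and 15 fibroblast (3 vehicle, 4 EC, 4 IPFc and 4 TGF-β), from 4 mice whose numbers pair the libraries. The epithelial TGF-β library of mouse 1 and the fibroblast vehicle library of mouse 2 were not analysed here. All fibroblast libraries came from 1 cell line, and the 3 exposures of a fraction shared its vehicle libraries.

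IL-4 and IL-13 both signal through the IL-4 receptor α chain, which pairs with the IL-13 receptor α1 chain on epithelial cells, and activate JAK kinases and the transcription factor STAT6. In mouse airway epithelium and in macrophages this pathway induces secreted and metabolic proteins that mark a type 2 response, among them chitinase-like proteins, a calcium-activated chloride channel regulator of mucous cells, resistin-like molecules, lipoxygenase and arginase. The IL-13 receptor α2 chain binds IL-13 but is best known as a decoy.

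Chil3 (Ym1) and Chil4 (Ym2) encode secreted chitinase-like lectins without chitinase activity and lie beside each other on chromosome 3, Chil3 at chr3:106147554-106167564 and Chil4 at chr3:106201491-106219479 (RefSeq, GRCm38.p6), with 33926 bases between them. Clca1, a secreted regulator of chloride channels in mucous cells, lies on the same chromosome at chr3:145004537-145032776. Slc26a4 at chr12:31519814-31560055 encodes pendrin, an apical exchanger of chloride for bicarbonate and iodide. Retnla at chr16:48842609-48844461 encodes the resistin-like molecule FIZZ1, Alox15 at chr11:70344147-70390538 a 12/15-lipoxygenase of polyunsaturated fatty acids, Arg1 at chr10:24915207-24927470 the cytosolic arginase, and Itln1 at chr1:171518123-171535325 the galactofuranose-binding lectin intelectin 1.

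The bases before the start of 4 of these genes are shown because Chil4, Slc26a4 and Retnla carry the largest levels described here and because Chil3 and Chil4 are near copies. RefSeq's promoter table (GRCm38.p6) held 5 of the 8 members, all but Clca1, Alox15 and Arg1. The windows are 250 bases, at chr3:106219480-106219729 for Chil4, chr3:106167565-106167814 for Chil3 and chr12:31559985-31560234 for Slc26a4 (all on the minus strand), and chr16:48842359-48842608 for Retnla (plus strand). Each is written from 5′ to 3′, up to the base before the start the table gives. Capitals mark a match to a STAT palindrome, TTCNNNGAA or TTCNNNNGAA, the second of which is the spacing that STAT6 is known to prefer.
Chil4: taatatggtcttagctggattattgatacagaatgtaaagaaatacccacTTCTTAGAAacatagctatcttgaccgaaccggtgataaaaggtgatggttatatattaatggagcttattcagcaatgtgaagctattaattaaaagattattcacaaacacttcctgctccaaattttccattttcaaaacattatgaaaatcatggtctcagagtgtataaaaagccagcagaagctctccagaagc
Chil3: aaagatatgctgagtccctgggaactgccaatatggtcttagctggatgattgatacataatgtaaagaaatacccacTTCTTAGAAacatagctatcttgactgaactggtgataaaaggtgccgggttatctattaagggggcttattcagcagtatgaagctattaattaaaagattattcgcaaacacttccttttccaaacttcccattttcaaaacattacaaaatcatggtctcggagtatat
Retnla: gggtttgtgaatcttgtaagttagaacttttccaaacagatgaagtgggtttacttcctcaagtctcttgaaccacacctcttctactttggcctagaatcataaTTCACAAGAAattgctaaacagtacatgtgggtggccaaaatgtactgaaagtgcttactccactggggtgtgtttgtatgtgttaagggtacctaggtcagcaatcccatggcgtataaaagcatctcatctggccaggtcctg
Slc26a4: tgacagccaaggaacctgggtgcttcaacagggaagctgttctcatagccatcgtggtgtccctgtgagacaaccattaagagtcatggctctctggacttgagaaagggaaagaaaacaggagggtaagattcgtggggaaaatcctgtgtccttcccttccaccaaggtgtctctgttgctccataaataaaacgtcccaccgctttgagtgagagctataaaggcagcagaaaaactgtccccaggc
Both palindromes read the same on either strand and do not overlap here. TTCNNNGAA was found as TTCTTAGAA in Chil3 (bases 172 to 164 before the start) and in Chil4 (bases 200 to 192), and TTCNNNNGAA as TTCACAAGAA in Retnla (bases 145 to 136). Neither was in the windows of Slc26a4 and Itln1. Of 32851 promoter windows of the same length in the table, 7.02% held TTCNNNGAA and 5.85% held TTCNNNNGAA. In an alignment of the Chil3 and Chil4 windows, 201 of 279 columns were identical (72.0%). The columns include gaps, which come with windows shifted against each other (the palindrome begins 172 and 200 bases before the start). The identity of the bases that do pair is therefore higher.

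The messages of the 2 chitinase-like genes are close too. Their canonical transcripts (GENCODE M39), both 1539 bases long, were identical at 1452 of 1540 aligned positions (94.3%). Of all 50-base windows of the Chil3 transcript, 18.5% occur unchanged in Chil4, falling to 3.75% of 100-base windows and to 0 of 150-base windows. How reads that match both genes were counted is not given in the sources used here, so a Chil3 value beside a far larger Chil4 value is uncertain.

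The libraries held 5113828 to 20317181 counted reads (median 13843287). A fraction was not pure. By the median, over epithelial marker genes, of a fibroblast library's level to that of the epithelial library of the same mouse and exposure, epithelial RNA amounted to a mean of 22.8% under vehicle, 43.5% under EC, 19.1% under IPFc and 2.19% under TGF-β. The share of fibroblast RNA in epithelial libraries, taken the same way, was 6.03%, 11.7%, 11.2% and 28.1%. The labels of the fractions otherwise held. Epcam averaged 222 CPM (reads of a gene scaled to the size of the library) in epithelial and 33.4 CPM in fibroblast vehicle libraries, and Col1a1 82.7 CPM against 1294 CPM. In bulk libraries, fewer cells of a type and less RNA per cell cannot be told apart.

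Exposure to IPFc gave the highest mean level of 6 of the 8 members in the epithelial fraction, all but Arg1 and Itln1, and the ratio of the mean to that of vehicle ranged from 9001.5 for Chil4 to 0.587 for Arg1. The members were selected on these values, and no test was run on them. All 8 passed the filter on low counts in the epithelial fraction, also without the IPFc libraries. Over all 18024 genes tested, 3.41% lay in all 4 IPFc libraries above all 4 vehicle libraries. Of the members, Chil3, Chil4, Clca1, Slc26a4, Retnla and Itln1 did so. By fitted log2 fold change they ranked 1 (Chil4, 13.14), 2 (Clca1, 9.15), 7 (Chil3, 5.78), 8 (Slc26a4, 5.66), 25 (Alox15, 4.09), 74 (Retnla, 2.82) and 119 (Itln1, 2.45) among those genes, and Arg1 was at rank 16754 (-0.80).

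Among the secreted chitinase-like genes, Chil4 was counted at 0.274, 0.973, 0.462 and 0.0849 CPM in the vehicle libraries of mice 1 to 4, which is 1 to 12 reads, and at 4389, 4609.8, 4224 and 2925 CPM under IPFc. The mouse with the lowest IPFc value was mouse 4, and its library still lay 3 orders of magnitude over the highest vehicle library. Within the 3 mice with more than 3 vehicle reads the ratio to vehicle ran from 4736 to 16009. The neighbouring Chil3 had 8 vehicle reads, all in mouse 1 (0.548 CPM), and none in mice 2 to 4. Under IPFc it was at 8.90, 6.03, 6.98 and 5.57 CPM, or 0.131 to 0.203 reads for every 100 Chil4 reads of the same library. The 4 IPFc libraries were thus close to each other in this ratio.

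Clca1 of the mucous cell was at 0.206, 0.162, 0.308 and 0 CPM in the vehicle libraries and at 118, 143, 130.4 and 41.7 CPM under IPFc, a ratio of means of 642. Mouse 4 was again the lowest. For the exchanger gene Slc26a4 a baseline level was present, at 5.21, 4.22, 4.00 and 6.19 CPM under vehicle. It reached 166, 257, 322 and 255 CPM under IPFc, which is 31.9-fold to 80.5-fold within a mouse. Mouse 1 was the lowest here, so the order of the mice differed between members.

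The resistin-like gene Retnla was the one with a high baseline, at 93.1, 153, 171 and 135 CPM under vehicle, and stood at 638, 1350, 1157 and 862 CPM under IPFc. The fold within a mouse had a narrow range, from 6.38 to 8.85. Itln1 went from 0.274, 0.568, 0.564 and 0.255 CPM to 1.78, 5.38, 1.51 and 1.39 CPM, of which the library of mouse 2 stood apart from the other 3.

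The 2 enzyme genes departed from this pattern. Alox15 was at 0.548, 1.14, 0.718 and 0 CPM under vehicle and at 10.6, 19.3, 11.4 and 0.573 CPM under IPFc. In mouse 4, the IPFc library thus lay within the range of the vehicle libraries, and the groups overlapped. Arg1 was at 7.54, 8.44, 7.03 and 6.36 CPM under vehicle and at 4.05, 4.02, 6.29 and 2.87 CPM under IPFc, all 4 below the lowest vehicle library. The log2 difference of Arg1 was -1.05 without mouse 3, whose IPFc library was the highest of the 4.

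**Figure D1:**
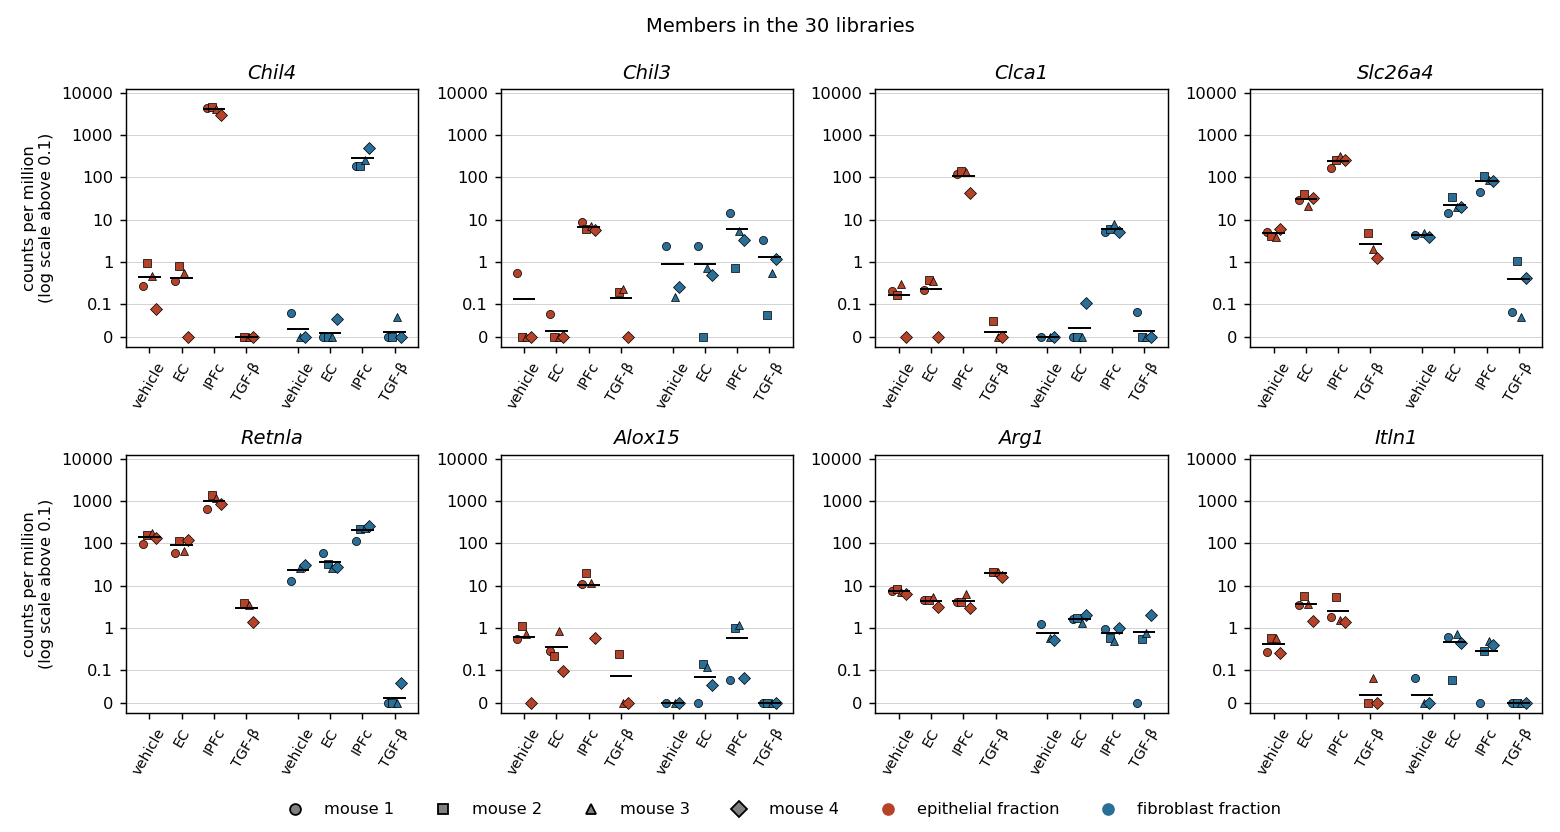
Level of each of the 8 genes in every library, in CPM on a log axis, by exposure, with the epithelial and the fibroblast fraction in different colours, a marker shape for each mouse and black bars at the group means. Below 0.1 CPM the axis is linear. Chil4 and Clca1 are near the floor everywhere but under IPFc, Slc26a4 and Itln1 are also high under EC, and Arg1 is highest in epithelial TGF-β libraries.

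Set against each other per length of transcript, as CPM per kilobase, the members fell into few steps. Under vehicle, Retnla (223 ± 53.9, SD, n = 4) was above Arg1 (4.56 ± 0.543) and Slc26a4 (0.958 ± 0.197), and the ranges of these 3 did not overlap. The other 5 had means of 0.364 or less, and each overlapped with the next in order, though Itln1 (0.223 to 0.497) and Clca1 (0 to 0.0842) did not overlap. Under IPFc, Chil4 (2623 ± 493) and Retnla (1621 ± 509) led with overlapping ranges, followed by Slc26a4 (48.8 ± 12.5) and Clca1 (29.7 ± 12.5), whose ranges overlapped too. Chil3, Alox15, Arg1 and Itln1 came last, at means of 2.20 to 4.46 that did not differ beyond their spread. Under TGF-β the order was Arg1 (12.0 ± 1.64, n = 3), Retnla (4.69 ± 2.16) and Slc26a4 (0.527 ± 0.361), with no overlap among them.

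Genes of the pathway that are no members were tested in the same fit (edgeR's quasi-likelihood test with the mouse as block, adjusted over all 18024 genes), where IPFc raised 2.57% and lowered 1.53% of all genes in the epithelial fraction. These lists, and those of the next 2 paragraphs, were chosen with earlier results of these data known. They hold top genes of this contrast, such as Retnlb (rank 5) and Alox12e (rank 9). Their calls and counts are therefore no independent support. Of the fibroblast marker genes 14 of 27 rose with IPFc (median 0.78), and of the epithelial marker genes 6 of 34 fell and 1 rose. After subtraction of the fibroblast share from each epithelial library, 177 genes were called in place of 739. The part of this in the list counts was not tested. Of 15 receptor and signalling genes 4 rose and none fell (list median log2 fold change 0.04, that of all genes 0.01). Under vehicle, 9 of these 15 were lower in the epithelial than in the fibroblast fraction and 2 higher (list median -0.76). The part of fibroblast RNA in their rises was not tested. The receptor chains Il4ra (0.47, adjusted p = 0.00244), Il13ra1 (0.47, adjusted p = 0.0115) and Il13ra2 (1.73, adjusted p = 0.00173) were higher, as was Cish (1.02, adjusted p = 0.000259), a STAT-induced inhibitor of cytokine receptors. The transducers themselves were not called. Stat6, the transcription factor, was at 95.3 ± 4.91 CPM under vehicle and 97.8 ± 3.63 CPM under IPFc, and the log2 fold changes of Jak1, Jak2 and Tyk2 were 0.02, 0.04 and -0.04. Those of Jak3 (0.25), Il2rg (-0.29), Ptpn6 (-0.20), Irs1 (0.03), Irs2 (-0.15), Socs1 (0.09) and Socs3 (0.11) were not called either. The transcripts of Il4 and Il13 had no reads in any epithelial library, and of the cytokine transcripts only Il33 was abundant enough to test (0.55, adjusted p = 0.0182).

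Of 22 further response genes tested out of 26 listed, 7 rose and 1 fell under IPFc (list median 0.67). Retnlb, the resistin-like molecule of mucous cells, averaged 0.0331 CPM under vehicle and 3.00 CPM under IPFc (log2 fold change 6.16, adjusted p = 3.45e-05). The mucus genes Fcgbp (2.64, adjusted p = 5.31e-08) and Agr2 (2.23, adjusted p = 1.3e-10), which encode a mucin-associated protein and a disulphide isomerase needed for mucin folding, rose as well. So did the chemokine gene Ccl8 (2.45), the proton pump gene Atp12a (1.74), the sterol hydroxylase gene Ch25h (1.54) and the chitinase gene Chia1 (0.92). The one that fell was Gcnt3 (-0.85), a mucin glycosyltransferase. Muc5ac, the secreted mucin, was at 0.757 ± 0.369 CPM under vehicle and 1.54 ± 0.737 CPM under IPFc (adjusted p = 0.411), and its regulator Spdef had a log2 fold change of 0.26 (adjusted p = 0.766). Both were picked out after their values were seen.

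Relatives of the members did not move as a block, with 5 of 27 tested higher and 2 lower. Alox12e, an epidermal-type lipoxygenase, went from 0.106 to 4.89 CPM (log2 fold change 5.53, adjusted p = 1.18e-05). Chil5 (3.07), Chil1 (1.39) and Retnlg (1.94) were higher, and so was the arginine transporter gene Slc7a2 (0.97). Lower were the mitochondrial arginase gene Arg2 (-0.54) and the sulphate transporter gene Slc26a2 (-0.35). Chil1 and Chil5 are paralogs of Chil3, and how many reads they could share with it or with Chil4 was not measured.

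**Figure D2:**
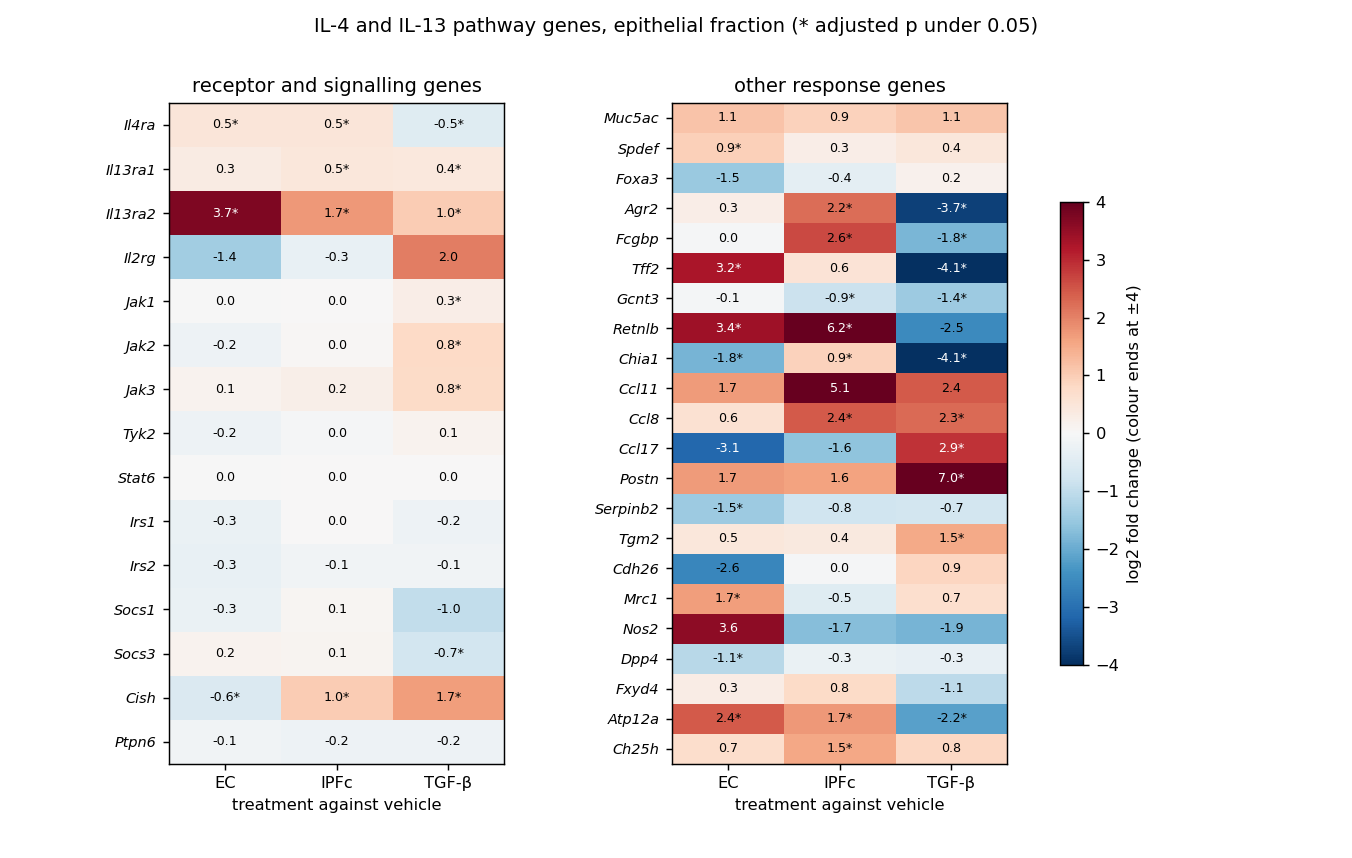
Fitted log2 fold changes against vehicle in the epithelial fraction of 15 receptor and signalling genes (left) and 22 other response genes (right), under EC, IPFc and TGF-β, with an asterisk at an adjusted p under 0.05. The IPFc calls on the left are 3 receptor chains and Cish, Stat6 is near 0 throughout, and Il13ra2 is highest under EC (3.72).

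EC, which holds neither IL-4 nor IL-13, was tested for all members in the epithelial fraction. It raised Slc26a4 and Itln1 and lowered Retnla and Arg1, where 1.96% of all genes rose and 2.44% fell. Slc26a4 was at 29.5, 40.4, 21.2 and 33.2 CPM in mice 1 to 4, 5.29-fold to 9.59-fold over the vehicle library of the same mouse (log2 fold change 2.65 ± 0.237, SE, adjusted p = 2.33e-07). Itln1 was at 3.41, 5.77, 3.76 and 1.46 CPM (3.04 ± 0.404, adjusted p = 5.33e-05). All 4 EC libraries were above all 4 vehicle libraries for both genes.

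Retnla under EC was at 58.5, 112, 66.1 and 119 CPM, below the vehicle library of the same mouse in each case, although the ranges of the groups overlapped (-0.64 ± 0.154, adjusted p = 0.0161). Arg1 was at 4.62, 4.43, 5.37 and 3.12 CPM, all below the lowest vehicle library (-0.74 ± 0.179, adjusted p = 0.0166). Both decreases were near the threshold. In a fit with no block for the mouse, Retnla had an adjusted p of 0.305 and Arg1 of 0.109. After subtraction of the fibroblast share these were 0.182 and 0.0682, and Retnla was at 0.118 with DESeq2 and 0.0529 with robust dispersions. That of Retnla was 0.106, 0.0603 and 0.159 without mouse 1, 2 or 3, and that of Arg1 0.0906, 0.137 and 0.0667 without mouse 1, 2 or 4. Chil4 (0.426 CPM against 0.448 CPM), Clca1 (0.235 against 0.169), Alox15 (22 reads against 36) and Chil3 (1 read in 4 libraries against 8) were not called, at adjusted p of 0.995, 0.82, 0.674 and 0.438.

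Among the pathway genes under EC, the decoy receptor gene Il13ra2 went from 1.26 ± 0.608 to 16.6 ± 5.83 CPM (3.72, adjusted p = 2.76e-08) and Il4ra rose (0.47, adjusted p = 0.0016), whereas Cish fell (-0.56, adjusted p = 0.0483). Of the 22 response genes 5 rose, namely Tff2 (3.25), Retnlb (3.40), Atp12a (2.44), Mrc1 (1.67) and Spdef (0.95), and 3 fell, namely Chia1 (-1.85), Serpinb2 (-1.46) and Dpp4 (-1.12). The 2 genes Retnlb and Atp12a were thus called higher under both cocktails, which were compared with the same vehicle libraries.

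TGF-β, tested on the libraries of mice 2, 3 and 4, raised Arg1 and lowered 5 other members in the epithelial fraction, where 21.0% of all genes rose and 20.1% fell. Arg1 was at 20.6, 21.0 and 16.2 CPM, all above the highest vehicle library (log2 fold change 1.44 ± 0.181, SE, adjusted p = 1.63e-06). Retnla was at 3.81, 3.52 and 1.36 CPM, against 93.1 CPM in the lowest vehicle library (-5.63 ± 0.239, adjusted p = 4.9e-13). Chil4 had no reads in the 3 libraries and 26 in the 4 vehicle libraries, which puts it at least 6.31-fold lower against a floor of 3 reads over the group (adjusted p = 0.00117).

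The remaining decreases rested on few reads. Itln1 had 1 read against 25 under vehicle (adjusted p = 0.00145), Alox15 5 against 36 (adjusted p = 0.00792) and Clca1 1 against 11 (adjusted p = 0.0222). Itln1 lost its call without mouse 2 (adjusted p = 0.0525), Alox15 without mouse 3 (0.0512) and Clca1 without mouse 3 (0.273), and the last 2 also without the mouse as a block (0.194 and 0.253). Slc26a4 was at 4.78, 2.07 and 1.25 CPM and was not called (-0.77, adjusted p = 0.069), but was without mouse 2 (-1.63, adjusted p = 0.0029). Chil3, with 7 reads against 8, was not called either (adjusted p = 0.58). It was called higher, by 4.31, without mouse 1, whose vehicle library held all 8 of the vehicle reads (adjusted p = 0.0317).

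The makeup of the epithelial libraries moved with TGF-β. Of 34 epithelial marker genes 26 fell and 3 rose, and 25 of 27 fibroblast marker genes tested rose (median 2.97), beside the 28.1% share of fibroblast RNA given above. After each epithelial library was reduced by its share of the partner fibroblast library, 4 of the 6 calls were made, those of Alox15 (adjusted p = 0.0569) and Clca1 (0.0717) being lost. Retnla, at 2.90 CPM on average, was 47.6-fold lower than under vehicle. The receptor list had 6 genes higher, namely Cish (1.69), Il13ra2 (1.02), Jak2 (0.80), Jak3 (0.78), Il13ra1 (0.43) and Jak1 (0.28), and 2 lower, Socs3 (-0.75) and Il4ra (-0.48). In the response list 4 rose and 6 fell, and among the relatives of the members 4 rose and 11 fell.

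**Figure D3:**
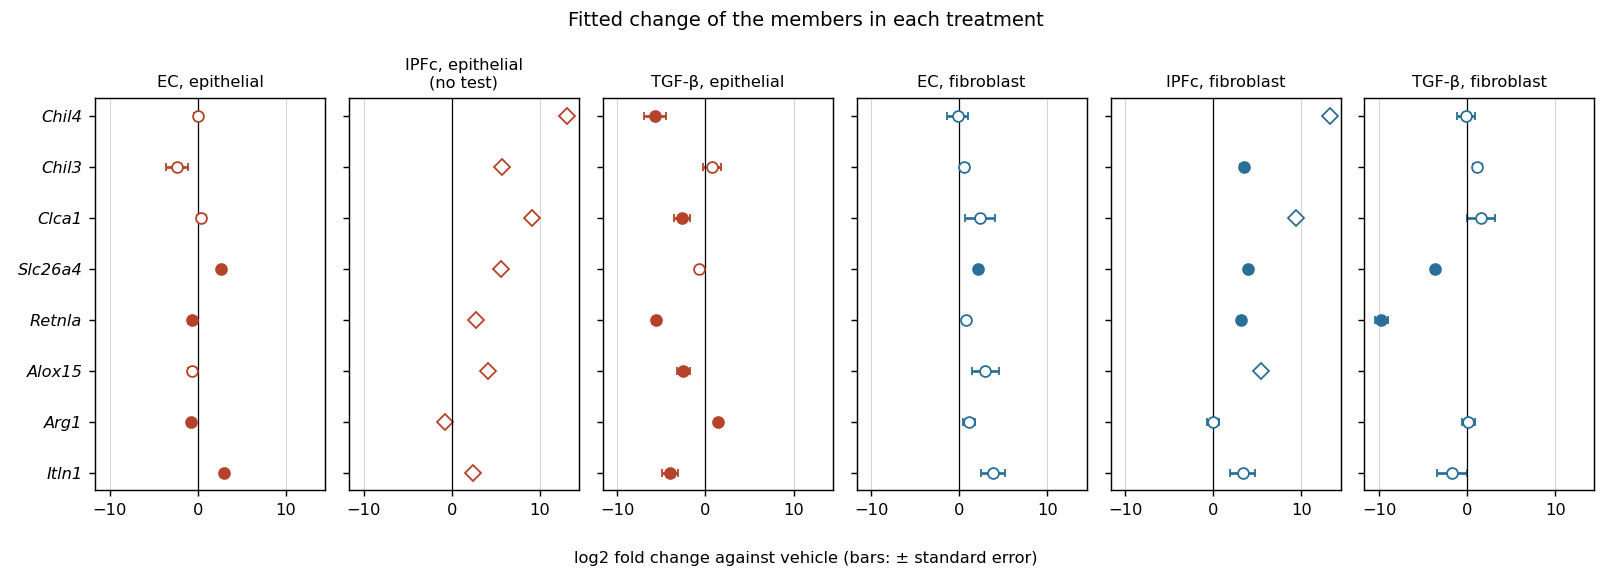
Fitted log2 fold change of the 8 genes against vehicle for each exposure and fraction, with bars of 1 SE and filled points at an adjusted p under 0.05. Open diamonds are values with no test and no call, in the epithelial IPFc panel and for Chil4, Clca1 and Alox15 in the fibroblast IPFc panel, and Alox15 is left out of the fibroblast TGF-β panel, where it had no reads. Arg1 is the member that moves opposite to Retnla under epithelial TGF-β.

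In the fibroblast fraction, Chil4, Clca1 and Alox15 passed the filter on low counts through the IPFc libraries alone, so that their difference was bound to appear, and their values are given with no test. Of the other 5 members, Slc26a4, Retnla and Chil3 rose under IPFc, where 0.305% of all 18048 genes rose and 0.144% fell. Epithelial RNA, on which the members were selected, made up a mean of 19.1% in these IPFc libraries. The 3 calls are therefore not independent of the selection. Chil4 was at 189.99, 188, 259.9 and 495 CPM, against 1 read in the 3 vehicle libraries, or at least 1191-fold and 2622-fold over a floor of 3 reads in mice 3 and 4. Clca1 was at 5.13, 6.09, 7.76 and 5.07 CPM and had no vehicle reads, or at least 22.8-fold to 35.6-fold higher within a mouse. Slc26a4 stood at 44.0, 105, 89.0 and 83.7 CPM against 3.84 to 4.80 CPM in the 3 vehicle libraries (log2 fold change 3.94 ± 0.267, adjusted p = 7.72e-07). Retnla was at 114, 212, 234 and 259 CPM against 12.9, 25.3 and 30.2 CPM (3.18 ± 0.352, adjusted p = 0.000233), and without mouse 4 its adjusted p was 0.0576. Chil3 rose as well (3.45 ± 0.444, adjusted p = 0.000994), with an adjusted p of 0.0538 without mouse 3 and of 0.857 without the mouse as a block. Itln1 and Arg1 were not called (adjusted p of 0.685 and 1), and Alox15 had 1, 14, 19 and 1 reads against none under vehicle.

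Under EC, only Slc26a4 was called in the fibroblast fraction, where 4.28% of genes rose and 2.84% fell. It was at 14.8, 35.0, 20.1 and 19.9 CPM (2.07 ± 0.263, adjusted p = 0.000266), all above the 3 vehicle libraries. Itln1 was called too without mouse 1, at an adjusted p of 0.0451. Under TGF-β, Slc26a4 fell by 3.63 on the log2 scale (adjusted p = 1.49e-06) to 25 reads in 4 libraries, and Retnla was at 1 read in 4 libraries against 999 in the 3 vehicle libraries (adjusted p = 3.68e-08), where 6.39% of genes rose and 12.8% fell.

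Epithelial RNA in the fibroblast libraries moved with these calls, for under TGF-β all 34 epithelial marker genes fell (median -3.97) and under EC 18 of 34 rose. Under IPFc none of the 34 was called in either direction. After each fibroblast library was reduced by its share of the partner epithelial library, none of the calls of Slc26a4, Chil3 and Retnla under IPFc was left (adjusted p of 0.38, 0.319 and 1), nor that of Slc26a4 under EC (0.645). Their fitted log2 fold changes under IPFc were 2.59, 3.02 and 12.92, and that of Slc26a4 under EC was 1.15. Counts that the subtraction would have made negative were set to no reads. Retnla was thereby left without reads in the vehicle and TGF-β libraries, so its 12.92 under IPFc rests on an empty reference. Its fitted value under TGF-β (0.55, adjusted p = 1) measured no direction. The number of genes called over the whole fraction under IPFc went from 81 to 4 in the same step, and under TGF-β from 3457 to 859. The fall of Slc26a4 under TGF-β kept its call in all 12 alternative fits, the subtraction among them (log2 fold change -4.38 to -3.25, adjusted p of at most 0.00379).

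Measured against the epithelial fraction, with CPM scaled over the libraries of both fractions together, the members spread widely. Under IPFc, the 34 epithelial marker genes were in the fibroblast fraction at 11.2% (Cbr2) to 65.2% (Napsa) of their epithelial mean, with a median of 17.5%. Chil4 was at 7.02%, Clca1 at 5.55% and Alox15 at 5.48%, below all 34 markers. Retnla (20.4%) and Arg1 (17.2%) were among them, Slc26a4 (32.2%) was above 28 of them, and Chil3 (87.2%) above all. Under vehicle Slc26a4 was at 87.8%, also above all 34 markers, the highest of which was Napsa at 83.5%. Under TGF-β Retnla was at 0.521%, below all 28 markers that were abundant enough. These positions are descriptions, and the source of the member reads in the fibroblast fraction was not tested.

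**Figure D4:**
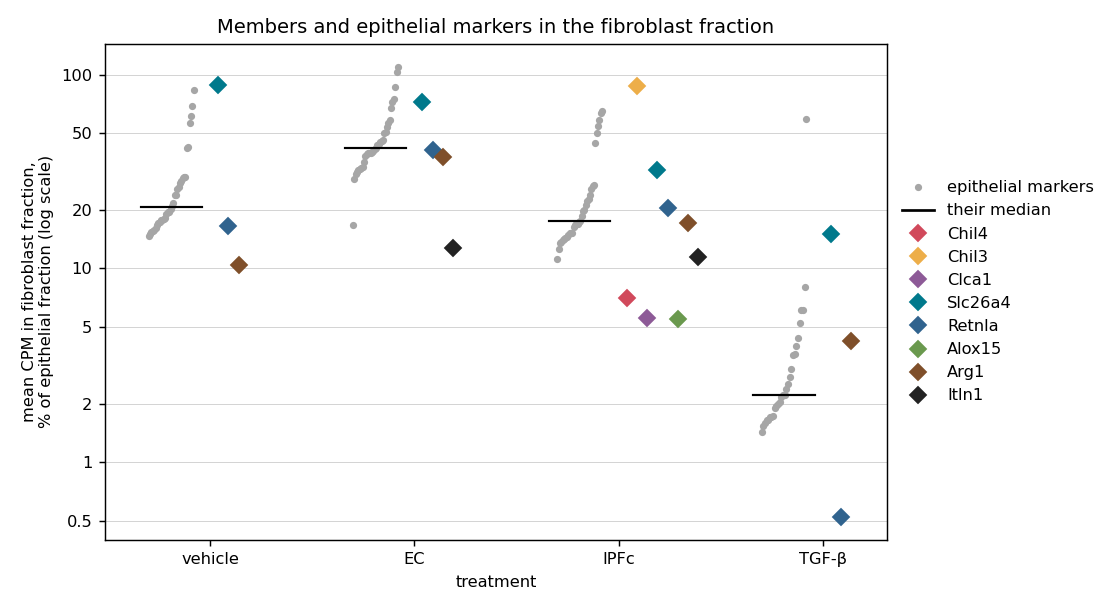
Mean level in the fibroblast fraction as a percent of the mean level in the epithelial fraction (log axis), by exposure, for epithelial marker genes with at least 50 CPM in the epithelial fraction (grey points) and for the members with at least 1 CPM there (named). Under IPFc, Chil4, Clca1 and Alox15 lie below and Chil3 lies above all 34 markers.

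Chil3, which is also a well-known product of alveolar macrophages, varied with the mouse as well as with the exposure in the fibroblast fraction. The libraries of mouse 1 held 31 reads under vehicle, 12 under EC, 207 under IPFc and 43 under TGF-β, whereas those of mouse 2 held 0 under EC, 10 under IPFc and 1 under TGF-β. In CPM, the IPFc libraries were at 14.6, 0.716, 5.29 and 3.38 for mice 1 to 4. For every 100 Chil4 reads there were 7.66, 0.380, 2.04 and 0.682 Chil3 reads, against 0.131 to 0.203 in the epithelial libraries. Marco, a scavenger receptor of alveolar macrophages, had 72 reads over the libraries of mouse 1, 0 over those of mouse 2, 21 over mouse 3 and 24 over mouse 4. Reads of the 5 defining markers Ptprc, Adgre1, Csf1r, Marco and Siglecf came to 124, 21, 73 and 86, and those of Chil3 to 293, 11, 111 and 76. The order of the mice was the same for Chil3 and for Marco up to mice 3 and 4, which were within 3 Marco reads of each other. Of the 124 reads in mouse 1, 72 were of Marco. Csf1r did not share this order, for mouse 1 was highest under no exposure. Under TGF-β, Csf1r had 6, 9, 10 and 11 reads in mice 1 to 4, and Ptprc 6, 2, 1 and 1. In mouse 1, Marco had 30 reads under vehicle and 27 under IPFc, where Chil3 had 31 and 207.

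Over all 16 macrophage markers, 14 to 16 had reads in the fibroblast groups and 7 to 10 in the epithelial groups. Their summed level ran from 61.1 to 88.3 CPM in the fibroblast IPFc libraries and from 61.3 to 87.8 CPM in the fibroblast vehicle libraries. In the epithelial fraction it was higher, from 204 to 253 CPM under IPFc and from 234 to 285 CPM under vehicle, and it was mostly Cd14, which epithelial cells also express. Reads of the 5 defining markers over the epithelial libraries of mice 1 to 4 came to 17, 47, 32 and 46, beside 119, 106, 105 and 68 reads of Chil3. In the 4 epithelial IPFc libraries, Csf1r had 4, 6, 1 and 8 reads, Ptprc 1, 0, 5 and 1, and Adgre1, Marco and Siglecf none. None of the 12 macrophage markers tested was called under IPFc in the fibroblast fraction. The part of such cells in the Chil3 values of either fraction was not tested.

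**Figure D5:**
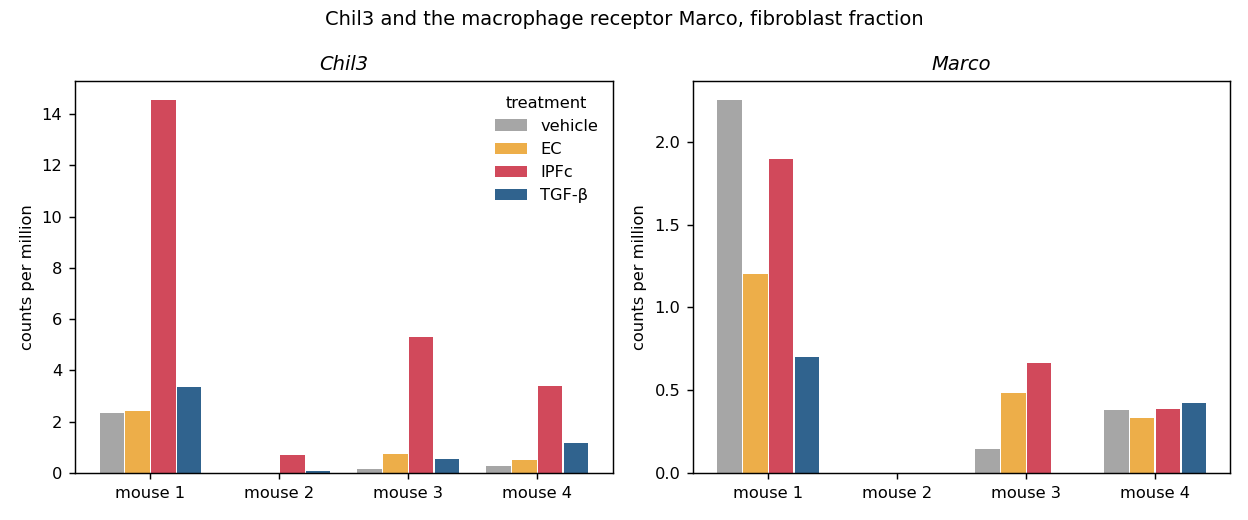
Chil3 (left) and Marco (right) in the fibroblast libraries of each mouse, in CPM, with a bar for each exposure (mouse 2 has no vehicle library). Mouse 1 has the highest level of Chil3 in every exposure and mouse 2 has no Marco reads.

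Tested between fractions outside IPFc, in a fit of all 30 libraries and 18364 genes, most members were higher in epithelial cells under vehicle (6 higher and 1 lower, where 27.8% of genes were higher and 28.2% lower). Retnla (138 ± 33.3 against 22.8 ± 8.95 CPM, adjusted p = 2.04e-07) and Arg1 (7.34 ± 0.874 against 0.763 CPM, adjusted p = 2.21e-06) led, and Alox15 (adjusted p = 0.00175), Itln1 (0.0149), Clca1 (0.0176) and Chil4 (0.0183) followed, each on 11 to 36 epithelial reads. Chil3 was lower (-2.29, adjusted p = 0.0339). Slc26a4 was at 4.91 ± 1.01 CPM in epithelial and 4.31 ± 0.481 CPM in fibroblast libraries, a log2 difference of 0.05 (adjusted p = 0.905). Without mouse 3, only 3 of these 7 calls were made, those of Chil3 (adjusted p = 0.09), Chil4 (0.141), Clca1 (0.154) and Itln1 (0.157) being lost. Leaving out mouse 1, 2 or 4 also lost that of Chil3 (0.0804 without mouse 1, 0.0849 without mouse 4), Chil4 (0.0555 without mouse 2), Clca1 (0.0935 without mouse 1) or Itln1 (0.0753 without mouse 4).

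Under EC, 5 members were higher and Chil3 lower in epithelial cells, where 24.0% of genes were higher and 25.1% lower. Retnla (1.22, adjusted p = 0.000888) and Itln1 (2.89, adjusted p = 0.000313) held under every mouse left out. Arg1 (1.41, adjusted p = 0.00556) did not without mouse 3 (0.109), Chil4 (4.14, adjusted p = 0.00953) not without mouse 2 (0.0612) or 3 (0.108), and Clca1 (2.41, adjusted p = 0.037) not without mouse 1 (0.0868), 2 (0.242) or 3 (0.303). Under TGF-β, Retnla (6.81, adjusted p = 6.02e-07), Arg1 (4.48, adjusted p = 2.54e-09) and Slc26a4 (2.65, adjusted p = 5.01e-05) were higher and none was lower, where 26.0% of genes were higher and 22.3% lower. Chil3 was lower there without mouse 2 (-2.67, adjusted p = 0.0345).

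Whether an effect differed between the fractions was tested by the interaction term. For EC, edgeR called none of the 8 members, where the effect was called more positive in epithelial cells for 0.114% of genes and more negative for 0.256%. At an unadjusted p under 0.05 there were 2, with no share of all genes taken at that level. DESeq2 called 1 member, where it called 581 genes in all against 68 with edgeR. For TGF-β, the effect was more positive in epithelial cells for Slc26a4 (2.60 ± 0.595, adjusted p = 0.00175) and Retnla (4.27 ± 1.22, adjusted p = 0.0107), where 17.6% of genes were called in this direction and 5.59% in the other, and where the median over all genes was 0.21. Retnla lost this call without mouse 2 (0.0812) or mouse 3 (0.0661), and Arg1 gained one without mouse 4 (2.41, adjusted p = 0.019). Slc26a4 kept its call in all 11 alternative fits (adjusted p of at most 0.0351). After the subtraction the fitted value of Retnla was -5.23 (adjusted p = 1), with no fibroblast reads left under vehicle or TGF-β to measure a direction. Slc26a4 and Retnla had the lower fold change in the fibroblast fraction, which under TGF-β also held the lowest share of epithelial RNA.

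The likeness of patterns was described by Pearson's r of log2(CPM + 1) over the 15 epithelial libraries, which share mice and exposures, and in which r rests on the 4 IPFc libraries standing apart for the members that rose there. Among the members, Chil4 and Clca1 were most alike (0.994), followed by Chil3 and Chil4 (0.985), and Retnla and Arg1 were the most opposed (-0.825). Of other genes, Npy4r, a neuropeptide Y receptor, was closest to Chil4 (0.99), Chil3 (0.984) and Clca1 (0.983). It was at 1.12 ± 0.151 CPM under vehicle and 19.5 ± 0.578 CPM under IPFc. Next were Hivep3 and Msx3 for Chil4 (0.978 and 0.976) and Clca1 (0.97 and 0.971), and Crispld2 and Hivep3 for Chil3 (0.976 and 0.968). Slc26a4, which also rose under EC, was most like Retnlb (0.948), Slc5a1 (0.928) and Dus4l (0.914). Retnla followed Ezr (0.971), Aldh1a7 (0.969) and Hspa1a (0.966), and Alox15 followed Alox12e (0.961), Fer1l6 (0.923) and Megf11 (0.903). Arg1 was closest to Cttn (0.969), Ppp2r2b (0.956) and Lamb3 (0.947), and Itln1 to Pigr (0.904), C3 (0.898) and Nfkb1 (0.884).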

How the data were processed

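The authors deposited raw counts of reads per Ensembl gene, 1 file per library. The submitters' processing notes name Trimmomatic 0.30 and DESeq2 1.34.0. The labels give GRCm39 and the study's methods GRCm38 as the build, and the aligner and counter are not given in the sources used here. Groups came from the labels.

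Genes with a mean count of at least 1 were kept, scaled by TMM and fitted with edgeR 4.0.16 (quasi-likelihood, two-sided, R 4.3.3), once per fraction over its 15 libraries and once over all 30, with the mouse as block. P-values were adjusted by Benjamini-Hochberg over all genes tested, with a threshold of 0.05. The authors' table of counts was also run through DESeq2 1.42.0. CPM are TMM-scaled over all 30 libraries together. The libraries are paired, since the labels give the same mouse for the same number. Deviations from the group means correlated at a mean of 0.297 (epithelial) and 0.319 (fibroblast) within a mouse, against -0.096 and -0.104 between mice. No pair of libraries was a duplicate. Floors cover counting error only, whereas the SD over libraries and the SE of the fit also hold variation between libraries.

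The share of the other fraction's RNA is the median ratio to the partner library over marker genes with at least 50 CPM there. Where the partner was not analysed, the mean of its group was used. The members and gene lists were chosen with earlier results of these data known. Named are all 8 members, the receptor and signalling genes and cytokine transcripts tested, of the other lists at most 6 genes a direction called under epithelial IPFc, and the 3 genes most alike in pattern. Chia1, Muc5ac, Spdef and the response genes named under EC were added to these after their values were seen. Chil3 and Chil4 transcripts were aligned with Biopython 1.88. The fits were tested on simulated data.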

Additional observations from a re-analysis of the deposited data

Results flagged for a closer look

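In the epithelial fraction under IPFc, Itln1 in mouse 2 (5.38 CPM) lay far above the other 3 mice (1.39 to 1.78 CPM), with a gap to the nearest library of 0.903 of the group's range. In the fibroblast fraction under EC, Retnla in mouse 1 (58.97 CPM) lay above the other 3 mice (26.6 to 32.0 CPM), with a gap of 0.833 of the range. That library was the shallowest of the 30, at 5113828 reads. These 2 came from 28 groups examined in this way, of which chance alone picks out about 1 in 20.

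The effect of TGF-β differed between the fractions by the interaction test for Slc26a4 (2.60 on the log2 scale, more negative in the fibroblast fraction) and for Retnla (4.27, more negative in the fibroblast fraction). The share of epithelial RNA in the fibroblast libraries was 2.19% under TGF-β and 22.8% under vehicle, and its part in these differences was not tested further than by the subtraction given below.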

How the results depend on the processing

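Of the members' fold changes and tests, 983 values under the alternatives kept their direction and side of the threshold, 49 lost and 20 gained a call, 22 untested ones moved by more than their spread and 2 reversed. The alternatives were DESeq2 and its size factors, no filter, edgeR's own filter, robust dispersions, fits of a treatment and vehicle alone, no replicate block, subtraction of the other fraction's share, and each mouse left out. The 2 that reversed were Retnla after subtraction, under TGF-β in the fibroblast fraction (0.55 on the log2 scale) and in its TGF-β difference between fractions (-5.23), both at an adjusted p of 1. Neither value measures a direction. The subtraction set negative counts to 0 and left Retnla no fibroblast reads under vehicle or TGF-β. It moved the members called under EC in the epithelial fraction from 4 to 2, under EC, IPFc and TGF-β in the fibroblast fraction from 1 to 0, from 5 (Chil4 and Clca1 included, which then could not be tested) to 0 and from 2 to 1, and the TGF-β difference from 2 to 1. Slc26a4 was the member left in the last 2. Over all genes, the numbers called went, in the same order, from 794 to 323, 1284 to 33, 81 to 4, 3457 to 859 and 4267 to 1587. Without the block on the paired mice, 2 members were called under EC in the epithelial fraction (391 of all genes against 794 with it). In the fibroblast fraction under EC, 2 were called without a filter and 3 in the fit of EC and vehicle alone. Over all genes these fits called 2048 and 1831, against 1284 in the main fit. The EC difference went from 0 to 1 with DESeq2 and to 2 without a filter, and over all genes from 68 to 581 and to 595. With a mouse left out, the number called was 2 to 3 (epithelial EC), 4 to 7 (epithelial TGF-β), 1 to 2 (fibroblast EC), 4 to 5 (fibroblast IPFc), 2 (fibroblast TGF-β), 3 to 6 (between fractions under vehicle and under EC), 3 to 4 (between fractions under TGF-β), 0 (EC difference) and 1 to 3 (TGF-β difference). Over all genes it was, in the same order, 421 to 727, 5752 to 6941, 217 to 2053, 14 to 128 and 2148 to 4089 within fractions. Between fractions it was 8045 to 9539 (vehicle), 6653 to 8733 (EC) and 6678 to 9150 (TGF-β). The differences had 4 to 181 (EC) and 2274 to 4169 (TGF-β). Under epithelial IPFc, 6 to 7 members lay above all vehicle libraries. The counts for fibroblast IPFc with a mouse left out include Chil4 and Clca1, whose difference was bound to appear through the filter. The cause of these moves was not tested. Depth limits Chil3, Chil4, Clca1, Alox15 and Itln1, which had 8 to 36 reads in all over the 4 epithelial vehicle libraries.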
